A study of Mus musculus with 6 samples.

Results

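The endoplasmic reticulum (ER) chaperones that fold sperm surface proteins are 3 testis forms, Clgn, Calr3 and Pdilt, and their ubiquitous paralogues Canx, Calr and Pdia3. All 16 probe sets that the platform annotation assigns to exactly 1 of these 6 genes were taken, of 45101 on the array: 8 for the testis forms and 8 for the paralogues. They were measured in whole testes at postnatal day 21 from 3 Nxf2 knockout (KO) and 3 wild-type (WT) samples, with 1 Affymetrix array per sample of total RNA. The sources used here do not name the knockout allele, the strain or the number of mice per sample. The p-values therefore describe the spread between these samples, which may be technical. The X-linked gene Nxf2 belongs to the NXF family of mRNA export factors and is active in male germ cells. At this age the submitters found testes of KO and WT mice to weigh about the same. The comparison asks whether loss of Nxf2 changed the transcripts of the testis forms, those of the paralogues, or both.

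Secreted and membrane proteins fold in the ER, where the lectin chaperones calnexin and calreticulin hold newly made glycoproteins and the disulfide isomerase ERp57 joins their cysteines. Male germ cells add testis copies of this machinery: calmegin (Clgn) resembles calnexin, calsperin (Calr3) resembles calreticulin, and PDILT is a disulfide isomerase-like protein that binds calmegin. In mice that lack any of these testis proteins, ADAM3 is missing from mature sperm, and the sperm neither bind the zona pellucida normally nor pass into the oviduct.

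Upstream sequences are shown for the testis forms and paralogues found in the RefSeq promoter table (GRCm38.p6), so that the genes that differ in response below can be compared by eye. Each line is the 150 bases before the annotated start on the gene's own strand, and for Calr3 the outer of its 2 starts. Clgn is not printed. Capitals mark the CCAAT box (CCAAT), the core of the cyclic AMP response element (TGACG) and, where its full spacing was met, the outer letters of the ER stress response element (ERSE, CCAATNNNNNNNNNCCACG, which contains a CCAAT box). Both strands were searched, so the same motifs also appear as ATTGG and CGTCA.
Pdilt, chr7:119523483-119523632, minus strand: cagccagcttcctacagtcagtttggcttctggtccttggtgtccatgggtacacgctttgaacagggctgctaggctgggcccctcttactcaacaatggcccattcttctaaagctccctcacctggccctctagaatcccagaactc
Calr3, chr8:72443779-72443928, minus strand: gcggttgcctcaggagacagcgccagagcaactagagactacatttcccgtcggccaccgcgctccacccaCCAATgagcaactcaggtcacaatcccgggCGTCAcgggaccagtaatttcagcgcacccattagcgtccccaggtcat
Canx, chr11:50325674-50325823, minus strand: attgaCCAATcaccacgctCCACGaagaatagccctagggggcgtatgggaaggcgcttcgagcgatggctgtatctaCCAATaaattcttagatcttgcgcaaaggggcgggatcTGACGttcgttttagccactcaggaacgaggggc
Calr, chr8:84846932-84847081, minus strand: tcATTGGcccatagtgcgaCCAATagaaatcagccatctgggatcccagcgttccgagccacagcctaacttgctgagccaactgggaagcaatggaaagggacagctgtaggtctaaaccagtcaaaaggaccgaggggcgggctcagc
Pdia3, chr2:121413752-121413901, plus strand: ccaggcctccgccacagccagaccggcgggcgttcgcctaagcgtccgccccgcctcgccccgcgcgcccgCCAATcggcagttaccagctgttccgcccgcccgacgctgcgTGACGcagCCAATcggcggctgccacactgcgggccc

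The Pdilt window held none of these motifs and 1 CpG, against a median of 4 CpG over 32851 windows of the same length. The Pdia3 window held 23 CpG, the Canx window 11 and the Calr window 5. Each of these 3 paralogue windows held 2 CCAAT boxes, and 24.5% of all windows held at least 1. The full ERSE spacing, known from genes induced by ER stress, was met in the Canx window and in 0.0822% of all windows. The outer Calr3 window had 11 CpG, 1 CCAAT box and 1 TGACG core (13.3% of all windows), and the window of its inner start had 1 CpG and 1 CCAAT box. The Canx and Pdia3 windows also held 1 TGACG core each. A match is a run of letters and not a measured binding site.

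The arrays were alike in scale, with medians of 37.1 to 40.9 and Spearman correlations of 0.965 to 0.992 over the tested probe sets. A probe set was tested if its mean signal over all arrays reached the 40th percentile (20.5), which left 27022 probe sets, and all 16 of the chaperones. The only Nxf2 probe set had signals of 116.0, 106.2 and 130.8 in KO and 374.3, 340.4 and 385.9 in WT (log2 fold change -1.59 ± 0.0999 SE, adjusted p = 0.000488, limma). It is not known here whether its probes lie in the deleted part. Over all tested probe sets the median log2 fold change was 0.037, and 1414 fell and 610 rose, against 1382 and 247 after median centring of each array. Without WT replicate 1 the calls dropped to 164.

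Pdilt and Clgn fell in KO testes and Calr3 did not pass the test, and no probe set of the paralogues passed. By the means of the deposited signals, Pdilt fell by 74.0% to a level below the dim limit, Clgn fell by at most 18%, and Calr3 was dim in both genotypes. Across the 16 probe sets 3 were called, or 18.8%, beside 7.49% of all tested probe sets, and all 3 were falls. Of all tested probe sets 5.23% fell and 2.26% rose. The KO and WT arrays did not overlap in 3 of the 16, beside 33.9% of all tested probe sets. The calls belong to 2 genes, and probe sets of a gene share its RNA, so they are not separate results.

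**Figure D1:**
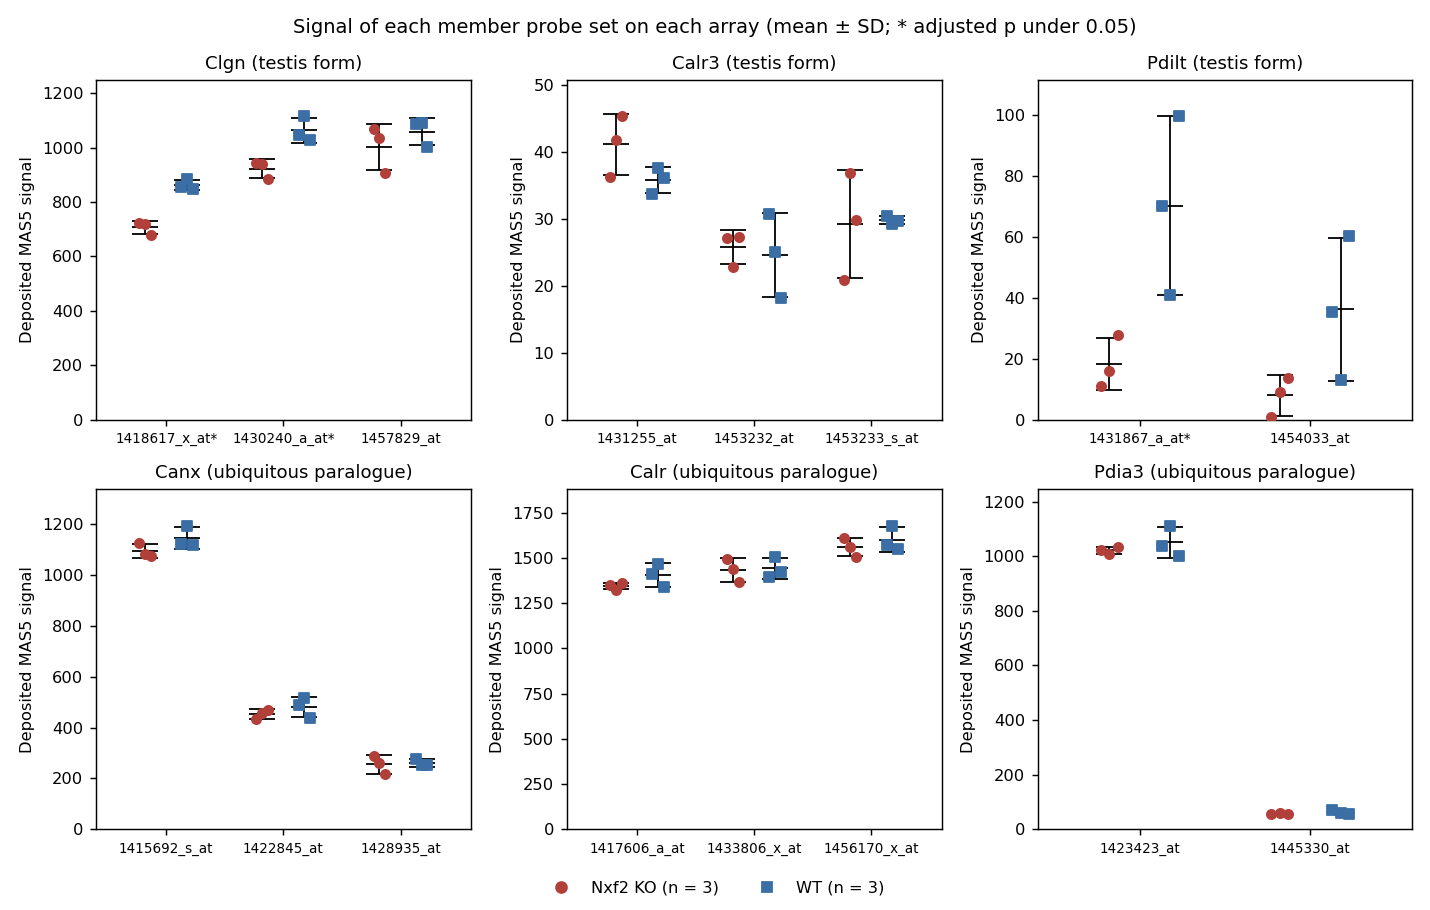
Deposited MAS5 signal (linear scale from 0) of each member probe set, with 1 point per array, circles for Nxf2 KO and squares for WT; black marks are the mean ± SD of 3 arrays and an asterisk marks an adjusted p under 0.05 (limma). The KO circles lie below all WT squares for the first 2 Clgn probe sets and for Pdilt 1431867_a_at, and overlap them elsewhere.

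Pdilt, the disulfide isomerase-like gene on chromosome 7, had the largest fall of the 6 genes. Probe set 1431867_a_at had signals of 11.2, 15.9 and 27.7 in KO replicates 1 to 3 and 70.2, 40.9 and 99.7 in WT replicates 1 to 3. All KO arrays lay below all WT arrays, as in 14.8% of tested probe sets, and the lowest WT array was replicate 2. The means were 18.3 ± 8.52 in KO and 70.3 ± 29.4 in WT (SD, n = 3 each), so the mean signal fell by 74.0%. On the log2(signal + 7) scale the log2 fold change was smaller in size than the means alone give, at -1.59 ± 0.299 SE (3.01-fold lower, adjusted p = 0.0159 by limma). A called fall of over 2-fold was seen in 0.77% of all tested probe sets. The other probe set, 1454033_at, had signals of 0.798, 9.27 and 13.8 in KO and 35.4, 13.1 and 60.2 in WT. Here KO replicate 3 lay just above WT replicate 2, and the log2 fold change of -1.48 ± 0.439 (SE) did not pass (adjusted p = 0.0681, limma). Both probe sets had KO means below 20.5 and entered the test through their WT signal, so a difference between the groups is partly built into their being tested. The call of 1431867_a_at was lost without WT replicate 1 (adjusted p = 0.076, limma) and without limma's intensity trend (adjusted p = 0.0581), and with a pseudocount of 39 in place of 7 the log2 fold change was -0.91.

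Clgn, the calmegin gene on chromosome 8, was bright on every array and fell slightly by 2 of its 3 probe sets. Probe set 1418617_x_at had signals of 723.9, 718.6 and 679.9 in KO and 854.2, 884.2 and 849.8 in WT. All KO arrays lay below all WT arrays, as in 14.8% of tested probe sets. The means were 707.5 ± 24.04 in KO and 862.8 ± 18.7 in WT (SD, n = 3 each). This probe set fell by 18% (log2 fold change -0.28 ± 0.0506 SE, adjusted p = 0.0128, limma). Probe set 1430240_a_at had signals of 943.7, 941.5 and 883.2 in KO and 1046.8, 1115.8 and 1027.7 in WT. It fell by 13.2%, again with no overlap of the groups (log2 fold change -0.20 ± 0.0511 SE, adjusted p = 0.0408, limma). The brightest probe set, 1457829_at, had signals of 1067.3, 1035.4 and 906.5 in KO and 1085.8, 1089.7 and 1002.4 in WT. Its groups overlapped and it did not pass (log2 fold change -0.081 ± 0.0657 SE, 95% interval -0.23 to 0.066, adjusted p = 0.443, limma).

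In a comparison that was not planned, the called Clgn probe sets were set over the probe set that did not pass. A lower ratio therefore restates in part the fold changes given above. The probe sets were compared on the same arrays. There, the log2 ratio of 1418617_x_at to 1457829_at was lower in KO by a difference of -0.20 ± 0.0536 (SE), with all 3 KO arrays below all 3 WT arrays (exact two-sided permutation p = 0.1, the smallest that 3 against 3 can give). For 1430240_a_at over 1457829_at the difference was -0.12 ± 0.0506 (SE) with overlapping groups (exact permutation p = 0.2), and the interval of 1457829_at holds the -0.20 of 1430240_a_at. In Affymetrix naming an x marks a set with probes that may match other transcripts and an a marks a set shared by transcripts of a gene. Which transcripts of Clgn each set reads was not established here. Probe set 1418617_x_at lost its call without WT replicate 1 (adjusted p = 0.0745, limma) and without the intensity trend (adjusted p = 0.0705). Probe set 1430240_a_at lost its call without any 1 of the 6 arrays (adjusted p of 0.0591 to 0.132), with log2 fold changes of -0.23 to -0.17. It also lost it after median centring (adjusted p = 0.0733), without the dim filter (0.0825) and without the trend (0.142).

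Calr3, the calsperin gene, lies on chromosome 8 and had low signals in both genotypes. Probe set 1431255_at had 36.3, 41.8 and 45.4 in KO and 33.8, 37.6 and 36.2 in WT, with overlapping groups (log2 fold change 0.17 ± 0.135 SE, 95% interval -0.13 to 0.47, adjusted p = 0.443, limma). Probe set 1453232_at had 27.21, 22.87 and 27.36 in KO and 30.81, 25.004 and 18.23 in WT. Probe set 1453233_s_at had 21.0, 36.9 and 29.9 in KO and 30.5, 29.3 and 29.8 in WT. Neither passed, at log2 fold changes of 0.067 ± 0.174 and -0.047 ± 0.175 (SE), and all 3 intervals together ran from -0.44 to 0.47. A fall in signal as deep as that of Pdilt lies outside these intervals, and one the size of the Clgn falls lies inside the intervals of the last 2 probe sets. This holds for the signal only. The share of background in these low signals was not tested, and detection calls were not used. Background in the WT signal could hide a fall of the transcript, so the intervals cannot exclude a deep fall of Calr3 transcripts.

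The 3 paralogues were bright in both genotypes, and none of their probe sets passed the test. Canx encodes calnexin, the membrane-bound lectin chaperone, on chromosome 11. Its brightest probe set, 1415692_s_at, had 1126.4, 1082.0 and 1076.2 in KO and 1121.1, 1194.1 and 1118.1 in WT (log2 fold change -0.063 ± 0.0457 SE, adjusted p = 0.388, limma). Calr, on chromosome 8, encodes the soluble, calcium-binding calreticulin. Its brightest, 1456170_x_at, had 1609.2, 1561.7 and 1507.8 in KO and 1574.7, 1678.9 and 1550.5 in WT (log2 fold change -0.038 ± 0.0438 SE, adjusted p = 0.601, limma). Pdia3, on chromosome 2, encodes ERp57. Its brightest, 1423423_at, had 1022.8, 1009.7 and 1035.4 in KO and 1038.0, 1111.8 and 1001.8 in WT (log2 fold change -0.037 ± 0.0496 SE, adjusted p = 0.653, limma). The groups overlapped in each.

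All 8 paralogue probe sets had slightly lower means in KO, with log2 fold changes of -0.14 to -0.0096. The widest was that of the dim Pdia3 probe set 1445330_at, with signals of 55.1, 58.3 and 54.9 in KO and 72.0, 59.8 and 57.2 in WT (95% interval -0.43 to 0.14). None of the 8 passed at an unadjusted p under 0.05 in limma, and none was called under any of the 15 alternatives run on the fit, though Pdia3 1445330_at was not tested with the dim filter at the 60th percentile. The direction was not stable: 6 of 8 were lower without KO replicate 3 or without WT replicate 2, and 7 of 8 with array weights or without WT replicate 1.

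**Figure D2:**
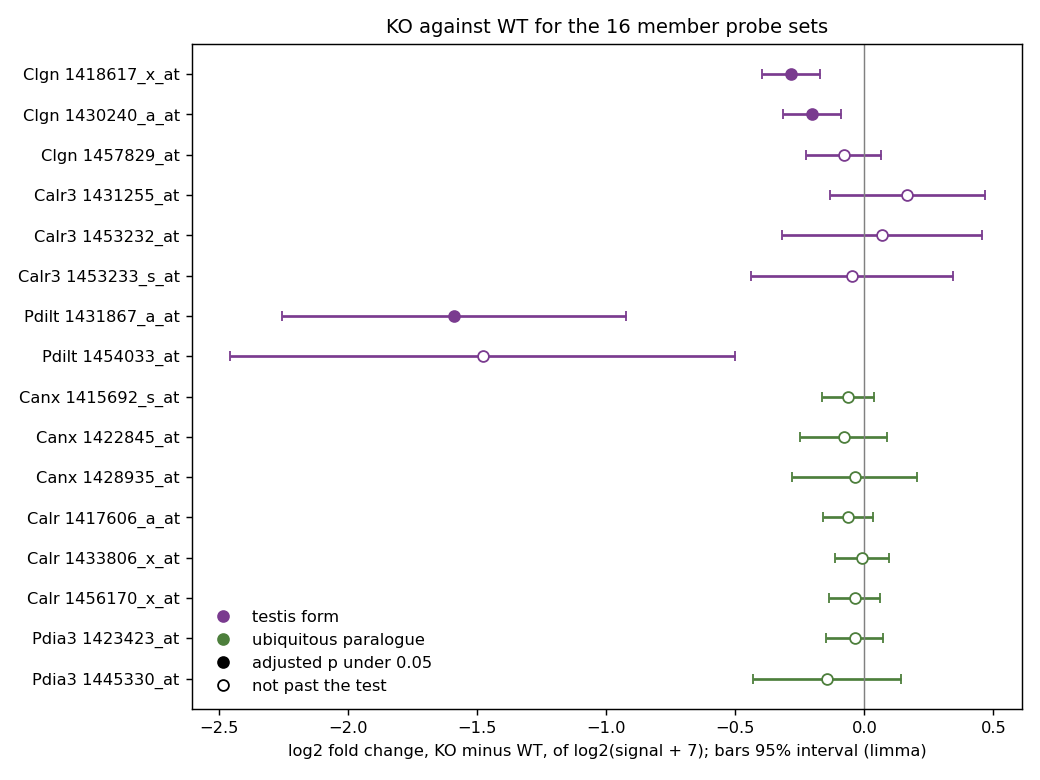
Log2 fold change (KO minus WT, of log2(signal + 7)) of the 16 probe sets with 95% intervals from limma, purple for testis forms and green for ubiquitous paralogues, filled where the adjusted p was under 0.05. The 2 Pdilt points lie at -1.59 and -1.48, 2 Clgn points at -0.28 and -0.20, and all paralogue intervals span 0.

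Each testis form was set against its paralogue on the same array, as the difference of their log2 values, which takes out any factor common to an array. Of the level of such a ratio nothing can be read, since probe sets differ in brightness, so only its change between genotypes is given. For Pdilt over Pdia3 the change was -1.55 ± 0.463 (SE), with every KO array below every WT array (exact two-sided permutation p = 0.1, the smallest possible, and 0.3 adjusted over the 3 pairs). With P4hb, the gene of the founding disulfide isomerase, in place of Pdia3 it was -1.64 ± 0.433 (SE). With the other Pdilt probe set, 1454033_at, it was -1.44 ± 0.695 (SE) and the groups overlapped (exact permutation p = 0.2). With a pseudocount of 39 the Pdilt over Pdia3 change was -0.87. For Clgn over Canx, by the brightest probe sets, the change was -0.018 ± 0.0676 (SE, exact permutation p = 0.8, adjusted 0.8) and the groups overlapped. By the mean of all probe sets of each gene it was -0.13 ± 0.0193 (SE), with all KO arrays below all WT arrays (exact permutation p = 0.1). It was -0.22 ± 0.0248 with Clgn 1418617_x_at and -0.14 ± 0.0258 with 1430240_a_at, both with all KO arrays below all WT arrays (exact permutation p = 0.1 each, choices made after the data were seen). The brightest-probe change turned to 0.041 without KO replicate 3 and to 0.015 without WT replicate 1. For Calr3 over Calr it was 0.20 ± 0.111 (SE, exact permutation p = 0.2, adjusted 0.3), with overlap, and -0.0098 with Calr3 1453233_s_at.

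The falls of Pdilt and Clgn were set against each other in the same way. The log2 ratio of Pdilt 1431867_a_at to Clgn 1418617_x_at was lower in KO by a difference of -1.31 ± 0.463 (SE), and all 3 KO arrays lay below all 3 WT arrays (exact permutation p = 0.1, the smallest possible). This ratio was not planned, and both probe sets had already been called as falls. The Pdilt probe set entered the test through its WT signal, so the difference is partly built in. In whole testis, fewer cells of a type and less RNA per cell cannot be told apart. Calmegin is known from pachytene spermatocytes onward, and PDILT is best known from later germ cells, so the stage markers are given beside them.

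Pdilt varied between arrays much as the medians of the spermatid markers did. With the WT mean set to 0 on the log2 scale, 1431867_a_at lay at -2.01, -1.68 and -1.08 in KO replicates 1 to 3 and at 0.074, -0.61 and 0.54 in WT replicates 1 to 3. The median of 13 tested round spermatid markers lay at -1.44, -1.36 and -0.82 in KO and at 0.14, -0.45 and 0.30 in WT. In that list 12 of 13 fell and none rose, beside 5.23% of all tested probe sets that fell and 2.26% that rose. By p the first were Actl7b, an actin-like gene of spermatids, and Tekt2, a flagellar tektin gene (log2 fold changes of -0.84 and -0.69). Of these 13, 4 had KO means below 20.5 and, like Pdilt, entered the test through WT; with the filter at the 60th percentile 7 were tested and 7 fell. The list's summed signal was 2863 to 3054 in KO and 4129 to 4735 in WT. Of 10 tested elongating spermatid markers 6 fell, first among them the outer dense fibre gene Odf1 and the fibrous sheath gene Akap3 (log2 fold changes of -2.33 and -1.44), with sums of 1164 to 1203 in KO and 1667 to 2468 in WT. Here too 4 of the 10 had KO means below 20.5, and with the stricter filter 5 were tested and 5 fell. WT replicate 2 was the lowest WT array for Pdilt and for both lists, and KO replicate 3 the highest KO array for Pdilt and for both list medians. By the summed signals KO replicate 1 was instead the highest KO array of both lists. For round spermatids its sum was 3054, against 2903 in KO replicate 3. For elongating spermatids it was 1202.8 against 1202.4. Without WT replicate 1 the falls were 2 of 12 and 0 of 10. They were 8 of 13 and 5 of 10 without the dim filter, and 6 of 13 and 4 of 10 without the intensity trend. No marker of either list was at 0 on any array, and the part of these markers in the fall of Pdilt was not tested.

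Clgn varied between arrays in another way. Probe set 1418617_x_at lay at -0.25, -0.26 and -0.34 in KO and at -0.014, 0.035 and -0.021 in WT, on the same scale. WT replicate 2, lowest for Pdilt, was the highest WT array for 1418617_x_at, and KO replicate 3, highest in KO for Pdilt, was the lowest KO array. The paralogues shared much of this order: WT replicate 2 was the highest WT array in 6 of their 8 probe sets, and KO replicate 3 the lowest KO array in 5 of 8. Probe sets of a gene share its RNA, and the share of all tested probe sets with this order was not counted. Whether the order is particular to these genes can therefore not be read from the counts. The median of 12 pachytene spermatocyte markers lay at -0.11, -0.21 and -0.37 in KO and at -0.029, 0.045 and -0.0097 in WT. Of these 12, 5 fell and none rose, beside 5.23% of all tested probe sets that fell. First among them by p were the germ cell phosphoglycerate kinase gene Pgk2 and the meiotic kinase gene Aurkc (log2 fold changes of -0.56 and -0.48). Only 1 fell without WT replicate 1, 2 without WT replicate 3, and 3 without KO replicate 3 or WT replicate 2. Without the dim filter 2 fell, and without the intensity trend 1. Their summed signal was 9529 to 11119 in KO and 11762 to 12263 in WT, with none at 0, and their part in the fall of Clgn was not tested.

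**Figure D3:**
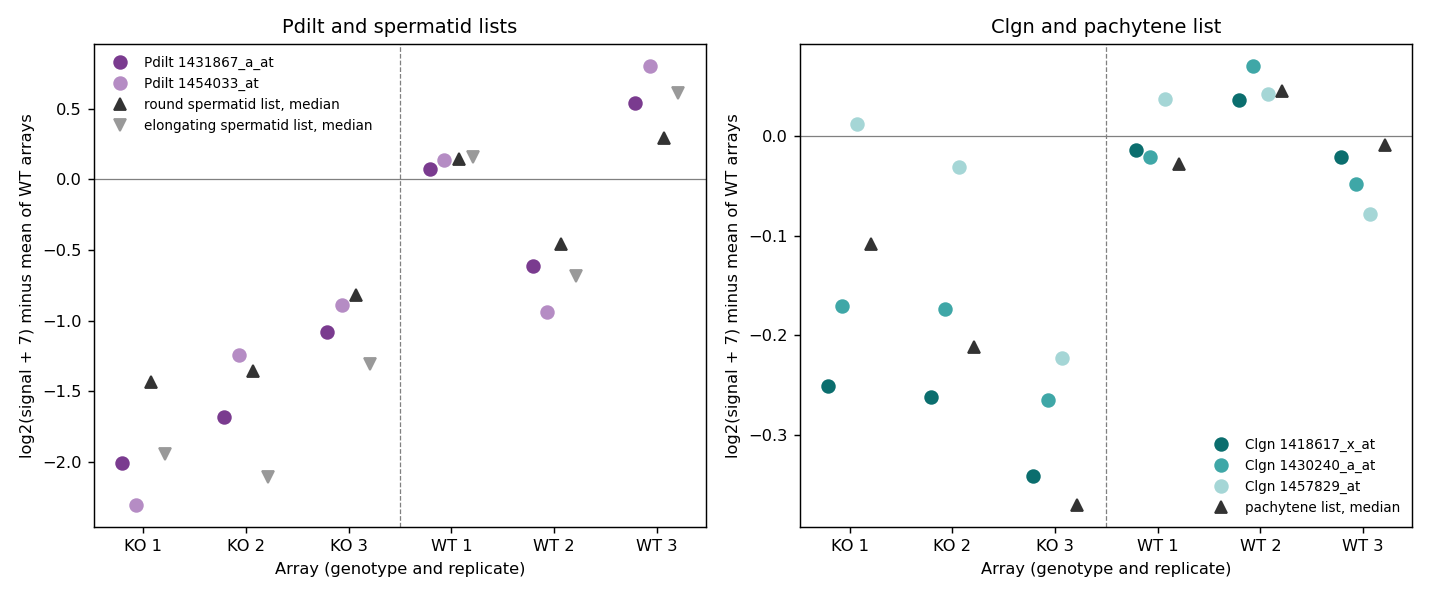
Log2(signal + 7) on each array with the WT mean set to 0, for Pdilt with the medians of the round and elongating spermatid lists (left) and for Clgn with the median of the pachytene list (right), with KO arrays left of the dashed line. In the left panel WT replicate 2 lies below the other WT arrays for all 4 series; in the right panel it is the highest WT array for all 4.

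Markers of spermatogonia, Sertoli and Leydig cells that passed the test were higher in KO, where 2.26% of all tested probe sets rose. Of 9 tested spermatogonial markers 4 rose, the stem cell factor genes Zbtb16 and Lin28a first (log2 fold changes of 0.93 and 0.59), with sums of 3296 to 3451 in KO and 2573 to 2723 in WT. Of 11 Sertoli cell markers 4 rose, among them Drd4 and Wt1 at log2 fold changes of 0.73 and 0.25 (sums of 6682 to 7158 in KO and 5871 to 6143 in WT). Of 7 Leydig cell markers 2 rose, the steroidogenesis genes Star and Scarb1 at 1.01 and 0.32 (2980 to 4445 in KO and 2420 to 2916 in WT). None of 12 macrophage markers passed, C1qb and Lyz2 included (log2 fold changes of 0.64 and 0.53). Their sums were 2338 to 3622 in KO and 1633 to 2233 in WT. Of these 12, 6 had an unadjusted p under 0.05 in limma, and that share over all tested probe sets was not counted. Without WT replicate 1 the rises in these lists were 2 of 9, 1 of 11, 0 of 7 and 0 of 12. In the same order they were 3, 1, 0 and 0 without the dim filter, and 2, 1, 0 and 0 without the intensity trend. No marker of these lists was at 0, and their part in the chaperone results was not tested. 

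By the pattern over all 6 arrays, the genes nearest to Pdilt were Lpcat2b, Cylc1 and Erich3. The root mean square difference of their centred log2 values from those of 1431867_a_at was 0.115, 0.118 and 0.123, where Pdilt itself spanned 2.55. Lpcat2b, a lysophospholipid acyltransferase gene, had 13.14, 16.02 and 27.22 in KO and 73.16, 52.10 and 98.53 in WT. Cylc1, an X-linked gene for a cytoskeletal protein of the sperm head, had 5.10, 5.72 and 10.6 in KO and 36.6, 19.1 and 53.5 in WT. Erich3 had 5.82, 8.77 and 19.6 in KO and 47.7, 30.8 and 57.5 in WT. As for Pdilt, KO replicate 3 was the highest KO array and WT replicate 2 the lowest WT array in all 3. These genes were chosen for their likeness to Pdilt, so the shared order follows from the choice. All 3 had KO means below 20.5 and, like Pdilt, entered the test through WT. Nearest to Clgn 1457829_at, which spanned 0.26, were Vamp4, Zfp597 and Chaserr at 0.015 to 0.020. Nearest to Calr3 1431255_at, which spanned 0.36, were Fam189a2, Kif13a and Nqo2 at 0.019 to 0.024. None of these 6 passed the test, and neither did the Clgn and Calr3 probe sets they were chosen to match. For Clgn the brightest probe set was used, not those that fell.

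Transcripts of a list of genes around ADAM3 fell in part: it holds Adam3, genes of its ADAM partners and other genes linked to ADAM3 on sperm. Of 15 listed genes 12 were tested, 6 fell and none rose, beside 5.23% of all tested probe sets that fell. The median log2 fold change was -0.19 in the list and 0.037 over all tested probe sets. Adam3, the best known client, had signals of 1093.3, 1051.9 and 898.5 in KO and 1230.7, 1304.1 and 1254.8 in WT. All KO arrays lay below all WT arrays, as in 14.8% of tested probe sets (log2 fold change -0.32 ± 0.0686 SE, adjusted p = 0.0248, limma). Adam3 is also in the pachytene list. Adam1b, a partner of ADAM2 on sperm, had 171.5, 174.2 and 146.1 in KO and 257.1, 285.2 and 288.8 in WT, again without overlap (log2 fold change -0.74 ± 0.0977 SE, adjusted p = 0.00499, limma). Lypd4, a GPI-anchored sperm protein gene, had a fall of smaller size (log2 fold change -0.23, adjusted p = 0.0237, limma). The other 3 that fell, named after their values were seen, were Adam2, Rnase10 and Cmtm2b, by 0.29, 0.44 and 0.21 on the log2 scale. Among those that did not pass, Tex101, whose GPI-anchored product accompanies ADAM3 in the testis, had a log2 fold change of -0.039 ± 0.0485 (SE). The count of falls was 3 after median centring, 1 without the dim filter, 1 without the intensity trend, 1 without WT replicate 1, 2 or 3, and 2 without KO replicate 2 or 3. It was 4 without KO replicate 1. Adam1b was called under every alternative run.

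Few genes of the ER machinery lists passed the test. Over 5 such lists 2 of 82 tested genes were called (2.44%, beside 7.49% of all tested probe sets), and the median log2 fold change was 0.021. The share of all tested probe sets under an unadjusted p of 0.05 was not counted. No excess can therefore be read from the unadjusted counts given for these lists. In the glycan trimming cycle that feeds calnexin and calreticulin none of 13 passed, with 3 at an unadjusted p under 0.05 in limma. Ppib, an ER prolyl isomerase gene, had the lowest p there (log2 fold change 0.17, adjusted p = 0.0627, limma), before Erlec1, an ER lectin gene, and Uggt2, a glucosyltransferase gene of folding control, at -0.23 each. Among 20 other disulfide isomerases and oxidases none passed, 3 being under 0.05 unadjusted in limma. The log2 fold change of Pdia5, an isomerase gene, was 0.29 with an adjusted p of 0.062 (limma). Those of Ero1a and Ero1b, the oxidases that recharge the isomerases, were 0.22 and -0.14. Another probe set of Ero1b was called.

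None of 14 genes of the ER Hsp70 and Hsp90 chaperones and their cofactors passed, with 3 under 0.05 unadjusted in limma, none of which encodes an Hsp70 or Hsp90. The log2 fold change of Sdf2 was 0.20 with an adjusted p of 0.0695 (limma), that of Creld2 -0.16 and that of Sdf2l1 -0.24. Hspa5, which encodes the main ER Hsp70 BiP and was named after its value was seen, had -0.013 ± 0.0412 (SE). None of 17 translocon and oligosaccharyltransferase genes passed, with 4 under 0.05 unadjusted in limma. Tusc3, an oligosaccharyltransferase subunit gene, had a value of -0.23 (adjusted p = 0.0523, limma), as did Sec61a2, a channel subunit gene, and Ostc had 0.14.

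Both calls in the ER machinery lists lay among 18 genes of the unfolded protein response and ER-associated degradation. Creb3l4, an ER-membrane transcription factor gene known in mouse for its expression in spermatids, had 47.5, 49.2 and 71.1 in KO and 133.9, 92.8 and 154.1 in WT. It fell (log2 fold change -1.08 ± 0.197 SE, adjusted p = 0.0141, limma) and lost the call without WT replicate 1 (adjusted p = 0.076). As for Pdilt, KO replicate 3 was its highest KO array and WT replicate 2 its lowest WT array. Eif2ak3, which encodes the stress sensor kinase PERK, had 119.4, 113.5 and 120.7 in KO and 90.6, 66.4 and 76.5 in WT. It rose (log2 fold change 0.57 ± 0.127 SE, adjusted p = 0.0285, limma) and lost the call without any 1 of the 6 arrays (adjusted p of 0.0594 to 0.0752). Ddit3, the stress-induced factor CHOP, did not pass (log2 fold change -0.21, adjusted p = 0.0838, limma).

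**Figure D4:**
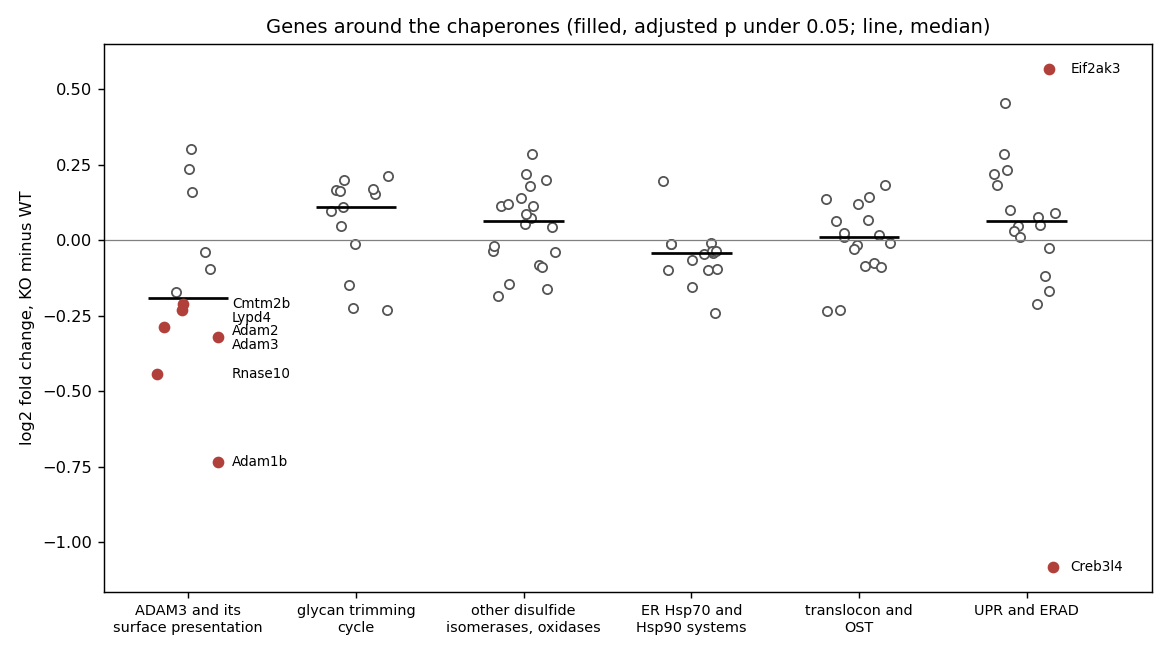
Log2 fold change (KO minus WT) of each tested gene in 6 lists, 1 point per gene by its brightest probe set, filled and named where the adjusted p was under 0.05 (limma), with a line at the list median. The 6 named falls in the first list run from -0.74 to -0.21, and the ER machinery lists lie around 0 apart from Creb3l4 at -1.08 and Eif2ak3 at 0.57.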

How the data were processed

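For each array the authors deposited a table of probe set signals, an intensity that is not log-transformed, and the submitters' processing notes name MAS5. With 2% trimmed at either end, the signals of every array averaged 150.0, the result of scaling each array by 1 factor. Detection calls were not used here, and the 3 arrays per group limit precision. Control probe sets (64) were left out. Of 34945 probe sets with 1 symbol, 34741 were updated through Entrez identifiers to the RefSeq table of GRCm38.p6. 932 had several symbols and 9160 had none.

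Signals were transformed to log2(signal + 7), 7 being the 25th percentile of all values, which understates folds of dim probe sets. KO and WT were compared with limma 3.58.1 (lmFit, eBayes with an intensity trend, two-sided) in R 4.3.3 over 27022 probe sets, and a probe set was called where its p, adjusted by Benjamini-Hochberg, was under 0.05. Ratios used exact permutation tests (scipy 1.17.1). A gene in a list was read by its brightest tested probe set. Named were Nxf2, all member probe sets, the 3 genes of lowest p per ER or ADAM3 list, 2 per marker list, and the 3 genes of nearest pattern per testis form (no clone or accession names). Members and lists were chosen with earlier results of these data known. In simulated arrays with real means and spreads, 40.8% of 76 probe sets changed by 0.5, 78.6% of 56 changed by 1 and 98.5% of 68 changed by 2 were called, with 6 of 148 calls false.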

Additional observations from a re-analysis of the deposited data

How the results depend on the processing

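Every called chaperone probe set kept its direction under all alternatives run in which it was tested, but not its call. Of the chaperone probe sets, 3 were called; 0 were called with eBayes without the trend, and 0 to 3 when each array was left out in turn (0 without WT replicate 1). The count was 2 to 4 under the other alternatives. Over the 6 ER and ADAM3 lists 8 of 94 genes were called, against 5 after median centring, 2 without the dim filter, 2 with eBayes without the trend, 29 with array weights (18 falls and 11 rises) and 1 to 6 when each array was left out. Calls over all 27022 tested probe sets moved as well. They were 2024 in the main fit, 1629 after median centring, 743 without the trend and 7217 with array weights. Without the dim filter they were 1005 of 45037, and they were 164 to 1547 when each array was left out. Clgn over Canx ran from -0.050 to 0.041, Calr3 over Calr from 0.12 to 0.30 and Pdilt over Pdia3 from -1.90 to -1.25 when each array was left out, and Pdilt over Pdia3 was -0.87 with a pseudocount of 39. Calr3 over Calr turned to -0.0098 with probe set 1453233_s_at. With array weights Calr3 1453232_at turned to -0.20 and Calr 1433806_x_at to 0.045. With each array left out, Calr3 1453232_at ran from -0.087 to 0.20, Calr3 1453233_s_at from -0.20 to 0.13, Canx 1428935_at from -0.13 to 0.075, Calr 1433806_x_at from -0.040 to 0.025 and Pdia3 1423423_at from -0.071 to 0.0040. Neither Pdilt probe set passed a dim filter at the 60th percentile, so no value was had there. The causes were not tested.

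Replicate numbers are shared by the groups, but the deviations of same-numbered arrays correlated at 0.079, 0.46 and 0.27, and WT replicate 1 correlated best with KO replicate 3 (0.11). The numbers were therefore not taken as pairs. With the replicate block, 4 chaperone probe sets were called, Pdilt 1454033_at being the fourth (adjusted p = 0.0134, limma), and 12 of 94 list genes were called. Calls over all tested probe sets rose as well, from 2024 to 4503 of 27022. The changes of the ratios stayed at -0.018, 0.20 and -1.55, for which 0.25 is the smallest p that swaps within 3 numbers can give.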
